A study of Homo sapiens with 6 samples.

Results

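The MYC, MAX and MXD network is a set of transcription factors that pair with one another through a basic helix-loop-helix leucine zipper. It was taken as 8 genes, MYC, MAX, MXD1, MXD4, MXI1, MNT, MLX and MGA, of which 7 were among the 11963 genes with a probe set of their own on the array. The platform annotation gave them 17 of 22215 probe sets without controls. Of these 14 named 1 gene, and 3 were annotated to both MXD4 and the microRNA gene MIR4800 and are given but not counted. RNA came from the triple-negative breast cancer line MDA-MB-231 and was measured on 1-colour arrays. The 3 dinaciclib samples, called F, 4 and 5, were taken 12 h after the drug, dissolved in DMSO, was added to the medium. The 3 baseline samples, called E, 4 and 5, were taken at 0 h. Dinaciclib inhibits several cyclin-dependent kinases, among them CDK9, which releases paused RNA polymerase II.

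All 6 samples were of this line, grown in RPMI medium with serum and antibiotics. The dose is not stated in the labels, nor is solvent for the baseline cells. No 12 h sample without drug is analysed here, so effects of drug, solvent and time cannot be told apart. Nothing in the labels says that the samples were separate cultures. The p-values then reflect just the spread among these 6 samples, and that spread may be technical.

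MYC is the activator of the network and binds the E-box CACGTG only as a dimer with MAX. MXD1, MXD4, MXI1 and MNT compete for MAX at the same sites, and recruit the SIN3 and histone deacetylase corepressor. MLX is a second hub, which pairs with the glucose-sensing factors MLXIP (MondoA) and MLXIPL (ChREBP) and also with some MXD proteins and MNT. MGA binds MAX within a variant Polycomb complex called PRC1.6. MYC messenger RNA is known as short-lived and as sensitive to inhibitors of transcriptional kinases.

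Promoter windows of 250 bases before to 50 bases after the gene start were given by RefSeq (GRCh38.p14) for 7 of the 8 genes, 12 windows in all. The E-box CACGTG, which reads the same on both strands and was not searched with any other motif, was present in 3 of them, those of MLX, MNT and MXD4. Of all 35116 windows of the same length, 7.26% held it. These 3 windows are shown because they hold the site that the network's dimers bind, in the genes whose own levels are given below. The E-box is in capitals.
MLX, chr17:42566850-42567149, plus strand: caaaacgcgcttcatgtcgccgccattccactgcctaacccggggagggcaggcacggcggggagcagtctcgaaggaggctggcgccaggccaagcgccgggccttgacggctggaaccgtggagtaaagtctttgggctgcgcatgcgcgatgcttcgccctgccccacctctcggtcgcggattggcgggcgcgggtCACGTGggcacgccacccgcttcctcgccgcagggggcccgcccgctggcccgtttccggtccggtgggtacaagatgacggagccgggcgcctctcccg
MNT, chr17:2401011-2401310, minus strand: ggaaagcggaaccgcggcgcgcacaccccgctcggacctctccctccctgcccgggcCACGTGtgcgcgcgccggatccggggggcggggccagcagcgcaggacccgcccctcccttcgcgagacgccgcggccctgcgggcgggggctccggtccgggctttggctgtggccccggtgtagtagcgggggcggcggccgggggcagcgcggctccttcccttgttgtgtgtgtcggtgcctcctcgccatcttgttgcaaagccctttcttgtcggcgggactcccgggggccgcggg
MXD4, chr4:2262060-2262359, minus strand: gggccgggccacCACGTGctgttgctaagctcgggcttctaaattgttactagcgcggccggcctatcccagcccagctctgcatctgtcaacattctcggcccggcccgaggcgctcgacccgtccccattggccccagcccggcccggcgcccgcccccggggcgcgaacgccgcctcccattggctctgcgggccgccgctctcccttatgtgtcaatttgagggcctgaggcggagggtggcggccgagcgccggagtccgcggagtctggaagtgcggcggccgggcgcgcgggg
Counted from the gene start, the first base of the E-box was at -50 in MLX, -193 in MNT and -238 in MXD4. The windows of MAX, MXD1, MXI1 and MGA did not hold these 6 letters.

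Median intensities of the arrays were 43.3, 46.8 and 40.6 in dinaciclib F, 4 and 5, and 53.3, 66.2 and 60.8 in baseline E, 4 and 5. As deposited, the median probe set had a log2 change of -0.21, which became 0.031 after quantile normalization, 0.24 when arrays were centred on their medians and -0.29 when they were centred on spiked controls. Samples named by a letter stood apart from those named by a number. The 18S ribosomal RNA control read 1155, 8688 and 9061 in dinaciclib F, 4 and 5, and 736, 8273 and 8642 in baseline E, 4 and 5. The ratio of 3' to 5' signal of the ACTB controls was 3.64, 5.87 and 6.23 in dinaciclib F, 4 and 5. It was 4.27, 6.61 and 6.67 in baseline E, 4 and 5. That of the GAPDH controls lay between 1.15 and 1.24 on all 6 arrays and did not split by name. Of 7 markers of the mesenchymal basal state of this line, VIM, CD44, CAV1, AXL, ANXA1 and MSN lay between 11.9 and 13.1 log2 units in both groups, and EGFR fell to 7.47 in dinaciclib samples, against 9.88 in baseline samples, a call made on 2 of its 6 probe sets. Of the receptors low in triple-negative cells, PGR read 1.31 and 1.85, ESR1 3.96 and 4.77 and ERBB2 6.23 and 7.39 log2 units in dinaciclib and baseline samples, and ERBB2 fell on 1 of its 2 probe sets. Of 5 luminal markers, CDH1 (2.34 and 2.70) and FOXA1 (3.98 and 2.39) were dim, while KRT19 (10.01 and 11.33), which fell, GATA3 (8.20 and 8.43) and EPCAM (7.73 and 7.71) were not. The 6 measured leukocyte and endothelial markers lay between 1.58 and 5.04 log2 units, and among them CD14 fell on its 1 probe set and PECAM1 on 1 of 3. The part of these shifts in the network's values was not tested.

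Of the 14 counted probe sets of the network, 4 rose, 4 fell and 6 did not pass the test. The 4 falls were all probe sets of MLX. The 4 rises were those of MXD1, MXI1 and, for MAX, 2 of 5 probe sets. A probe set was said to rise or fall at a Benjamini-Hochberg adjusted p under 0.05 in limma, fitted over all 22215 probe sets on log2(intensity + 1). Over all probe sets, 3.86% rose and 13.4% fell, 17.2% in all, against 57.1% of the network's. The probe sets of MLX and of MAX each share a gene and are not independent. Groups did not overlap in 12 of the 14, 8 of them higher and 4 lower with dinaciclib, against 36.6% of all probe sets, 10.1% higher and 26.5% lower. The median log2 change of the 14 was 0.83, against -0.21 over all. With quantile normalization or median centring, 8 of the 14 rose and 4 fell, and with centring on spiked controls 2 rose and 4 fell. Over all 22215 probe sets, 2130 rose with quantile normalization, 3487 with median centring and 520 with spiked controls, against 857 as deposited. Falls over all probe sets numbered 2338, 1938 and 2418, against 2971. Without baseline E 2 network probe sets rose, and without baseline 4 only that of MNT did. Without baseline 5, dinaciclib 4 or dinaciclib 5 limma called 0 network rises, with 11 of the 14 at an unadjusted p under 0.05 in each. Rises over all probe sets then numbered 629, 470, 374, 362 and 446, in the same order. The 4 falls of MLX were called in each of these fits. In such bulk samples, fewer cells with a transcript and less of it per cell cannot be told apart.

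**Figure D1:**
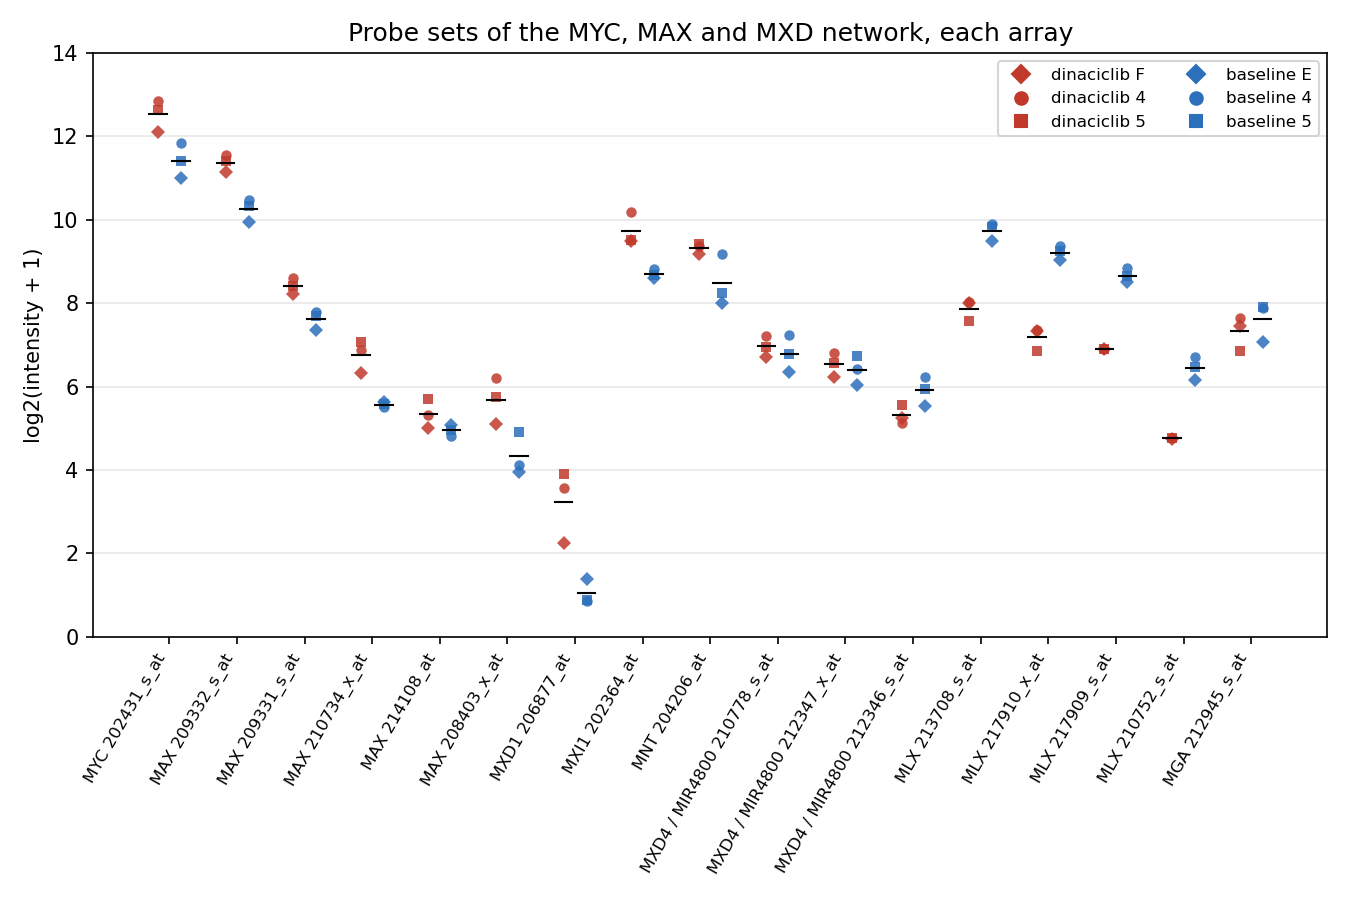
Values of the 17 network probe sets on each array. The vertical axis is log2(intensity + 1), the horizontal axis lists probe sets by gene, points are single arrays (dinaciclib red and left, baseline blue and right; diamonds are the letter-named samples), and bars are means of 3 arrays. The dinaciclib arrays lie below all baseline arrays in the 4 MLX probe sets and above them in MYC, MXD1, MXI1, MNT and 4 of 5 MAX probe sets.

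MYC, the oncogenic activator, has 1 probe set on the array (202431_s_at). Its intensity was 4429, 7407 and 6370.5 in dinaciclib F, 4 and 5, against 2037, 3659 and 2728 in baseline E, 4 and 5. All 3 dinaciclib arrays were higher than every baseline array, and within each group the letter-named sample was the lowest. The log2 mean was 12.54 ± 0.38 in dinaciclib samples and 11.41 ± 0.42 in baseline samples (SD, n = 3 each). The log2 change of 1.12, a 2.17-fold difference, had a standard error of 0.31 and a 95% interval of 0.37 to 1.87, and narrowly missed the threshold (limma, Benjamini-Hochberg adjusted p = 0.0561). The change was 1.12 between the letter-named samples, with no test, and 1.12 within the 4 numbered samples (limma, adjusted p = 0.0734). MYC passed under 6 of 15 alternatives, among them quantile normalization (1.02, limma, adjusted p = 0.0197) and letter or number as a covariate (1.12, limma, adjusted p = 0.0187), and adjusted p ranged from 0.00316 to 0.154 over all 15.

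MAX, the partner that MYC needs to bind DNA and with which MXD proteins, MNT and MGA also pair, has 5 probe sets. On 209332_s_at, its probe set with the highest mean, intensity was 2267, 3021 and 2715 in dinaciclib F, 4 and 5, against 992, 1432 and 1279 in baseline E, 4 and 5. The groups were separate by a wide gap, and the log2 change was 1.12 ± 0.23 (SE; limma, Benjamini-Hochberg adjusted p = 0.0231). On 210734_x_at, a probe set whose suffix marks possible cross-hybridization, intensity was 78.9, 116 and 133 in dinaciclib samples, against 48.3, 44.4 and 46.7 in baseline samples. Baseline values there were close together, and the log2 change was 1.18 ± 0.25 (SE; limma, Benjamini-Hochberg adjusted p = 0.0235).

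The other MAX probe sets did not pass. On 209331_s_at intensity was 299, 388 and 339 in dinaciclib samples, against 162, 221 and 206 in baseline samples, without overlap (log2 change 0.80, limma, adjusted p = 0.0525). On 208403_x_at it was 33.5, 72.4 and 53.1 in dinaciclib samples, against 14.4, 16.3 and 29.3 in baseline samples, again without overlap (log2 change 1.36, limma, adjusted p = 0.0602). The suffix of 208403_x_at too marks possible cross-hybridization. On 214108_at the groups overlapped, with 31.2, 38.9 and 50.8 in dinaciclib samples, against 33.1, 27.1 and 30.2 in baseline samples (log2 change 0.39, 95% interval -0.19 to 0.96). Both probe sets without overlap passed after quantile normalization, with log2 changes of 1.21 and 1.72, and with letter or number as a covariate (limma, adjusted p = 0.0232 and 0.0342). They passed under 6 and 7 of 15 alternatives. Between the letter-named samples the log2 change was 1.19 on 209332_s_at and 0.70 on 210734_x_at, and within the numbered samples 1.08 and 1.43. The call on 209332_s_at ended without baseline 4 or 5 (limma, adjusted p = 0.0524 and 0.0748), without dinaciclib 4 or 5 (0.0782 and 0.0724), in the numbered samples alone (0.0534) and with centring on spiked controls (0.0558). That on 210734_x_at ended without any 1 of the samples other than dinaciclib F, with adjusted p between 0.0514 and 0.0830, but held in the numbered samples alone (0.0405).

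The log2 difference of MYC over MAX, each read from its probe set with the highest mean, compares them within an array and does not depend on array scaling by a constant. It was 0.97, 1.29 and 1.23 in dinaciclib F, 4 and 5, against 1.04, 1.35 and 1.09 in baseline E, 4 and 5. The groups overlapped and their means, 1.16 ± 0.17 and 1.16 ± 0.17 in dinaciclib and baseline samples (SD, n = 3 each), differed by 0.0020 (two-sided exact permutation test, p = 1, where 0.1 is the smallest that 3 against 3 arrays allow). Each of these probe sets had a 2.17-fold difference, and their levels cannot be set against each other. The other MAX probe sets had log2 changes from 0.39 to 1.36, against 1.12 for MYC. The difference therefore depends on which MAX probe set is read.

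The MXD proteins and MNT are the repressors that compete with MYC for MAX. MXI1, also called MXD2, has 1 probe set (202364_at), with intensities of 723, 1169.8 and 736 in dinaciclib F, 4 and 5, against 389.6, 451 and 411 in baseline E, 4 and 5. Dinaciclib 4 stood above F and 5, and all 3 exceeded the baseline arrays. Its log2 change was 1.03 ± 0.25 (SE), a 2.05-fold rise (limma, Benjamini-Hochberg adjusted p = 0.0376). The change was 0.89 between the letter-named samples and 1.11 within the numbered samples (limma, adjusted p = 0.109). The call ended when any 1 of the 6 samples was left out, with adjusted p from 0.0580 to 0.117, and with centring on spiked controls (0.113).

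MXD1, a repressor induced as many cell types differentiate, read at the floor of the array at baseline. Intensities on 206877_at were 3.75, 10.9 and 14.1 in dinaciclib F, 4 and 5, against 1.61, 0.827 and 0.85 in baseline E, 4 and 5. All dinaciclib values were higher, yet each lay under 16, as did 34.5%, 33.8% and 35.7% of all probe sets on dinaciclib F, 4 and 5. The log2 change of 2.20 ± 0.46 (SE) passed (limma, Benjamini-Hochberg adjusted p = 0.0237), but its size depends on what is added before taking logs. On the log2(value + 16) scale it was 0.56 and did not pass (limma, adjusted p = 0.0591). The call also ended without baseline 4 or 5 (0.0843 and 0.0767) and without dinaciclib 4 or 5 (0.0717 and 0.0649). The change was 0.86 between the letter-named samples and 2.86 within the numbered samples (limma, adjusted p = 0.0367).

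MNT, the broadly expressed MAX partner that opposes MYC, did not pass. Intensities on 204206_at were 580.01, 659 and 689 in dinaciclib F, 4 and 5, against 255, 577 and 304 in baseline E, 4 and 5. The dinaciclib arrays lay close together and baseline 4 lay just under the lowest of them. The log2 change was 0.85 with a 95% interval of 0.04 to 1.66 (limma, Benjamini-Hochberg adjusted p = 0.145). It passed without baseline 4 (1.20, limma, adjusted p = 0.0442), after quantile normalization (1.13, 0.0394) and after median centring (1.30, 0.0240), and adjusted p over all 15 alternatives ranged from 0.0240 to 0.327. It was 1.18 between the letter-named samples and 0.69 within the numbered samples (limma, adjusted p = 0.327).

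MXD4 could be read only from probe sets that the annotation also gives to MIR4800, and none passed. On 210778_s_at intensities were 104, 149 and 124 in dinaciclib samples, against 80.3, 149.96 and 109 in baseline samples. On 212347_x_at, whose suffix marks possible cross-hybridization, they were 74.6, 112 and 93.8 in dinaciclib samples, against 64.6, 84.2 and 105 in baseline samples. On 212346_s_at they were 37.2, 33.8 and 46.1 in dinaciclib samples, against 45.6, 74.7 and 60.6 in baseline samples. Groups overlapped on each of the 3, with log2 changes of 0.18, 0.15 and -0.60 and 95% intervals of -0.52 to 0.88, -0.49 to 0.79 and -1.21 to 0.02. The first and second changed sign without baseline E, to -0.039 and -0.027.

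MLX, the hub of the glucose-sensing arm, fell on all 4 of its probe sets. Intensities on 213708_s_at were 255, 259.8 and 189 in dinaciclib F, 4 and 5, against 718, 949 and 913 in baseline E, 4 and 5. On 217910_x_at they were 161, 163 and 115 in dinaciclib samples, against 523, 658 and 607 in baseline samples. Dinaciclib values lay far below the lowest baseline value on both. The suffix of 217910_x_at marks possible cross-hybridization. On 217909_s_at the dinaciclib arrays agreed closely, at 119, 119 and 119, against 363, 458 and 398 in baseline samples. On 210752_s_at they read 26.0, 26.4 and 26.2, against 71.0, 103 and 87.1 in baseline samples. The log2 changes were -1.87 ± 0.23 on 213708_s_at, -2.03 ± 0.23 on 217910_x_at, -1.76 ± 0.19 on 217909_s_at and -1.68 ± 0.21 on 210752_s_at (SE), or 0.273, 0.245, 0.296 and 0.313 times baseline. Adjusted p-values were 0.00547, 0.00465, 0.00436 and 0.00569 (limma, Benjamini-Hochberg).

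The 4 falls of MLX passed under all 3 other scalings, with log2(value + 16), in the numbered samples alone and whichever sample was left out. Between the letter-named samples the 4 log2 changes lay between -1.69 and -1.41, and within the numbered samples between -2.20 and -1.81. Relative to the median probe set the 4 changes ranged from -1.82 to -1.47. Median centring gave the smallest change of 213708_s_at, -1.42.

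MGA, the large MAX partner of PRC1.6, did not pass on its 1 probe set (212945_s_at). Intensities were 176, 201 and 114 in dinaciclib F, 4 and 5, against 134, 235 and 239.9 in baseline E, 4 and 5. The groups overlapped, and the log2 change of -0.30 had a 95% interval of -1.11 to 0.51 (limma, Benjamini-Hochberg adjusted p = 0.614). It was 0.39 between the letter-named samples and -0.65 within the numbered samples, and 0.16 after quantile normalization.

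**Figure D2:**
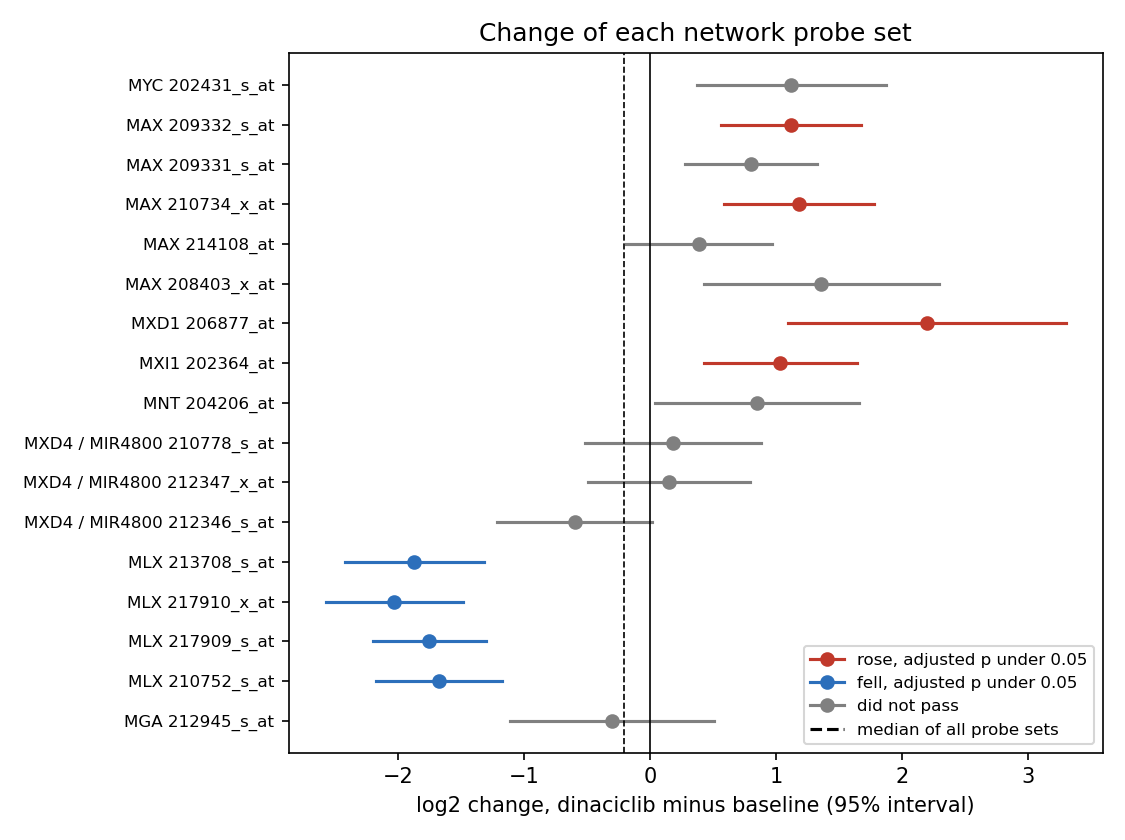
Log2 change of each of the 17 probe sets, dinaciclib minus baseline, with its 95% interval from limma (horizontal axis; 3 arrays a group). Red rose, blue fell and grey did not pass, and the dashed line is the median of all probe sets at -0.21. The 4 MLX intervals lie wholly below that line, and those of MYC, MXD1, MXI1, MNT and 4 MAX probe sets lie above 0.

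**Figure D3:**
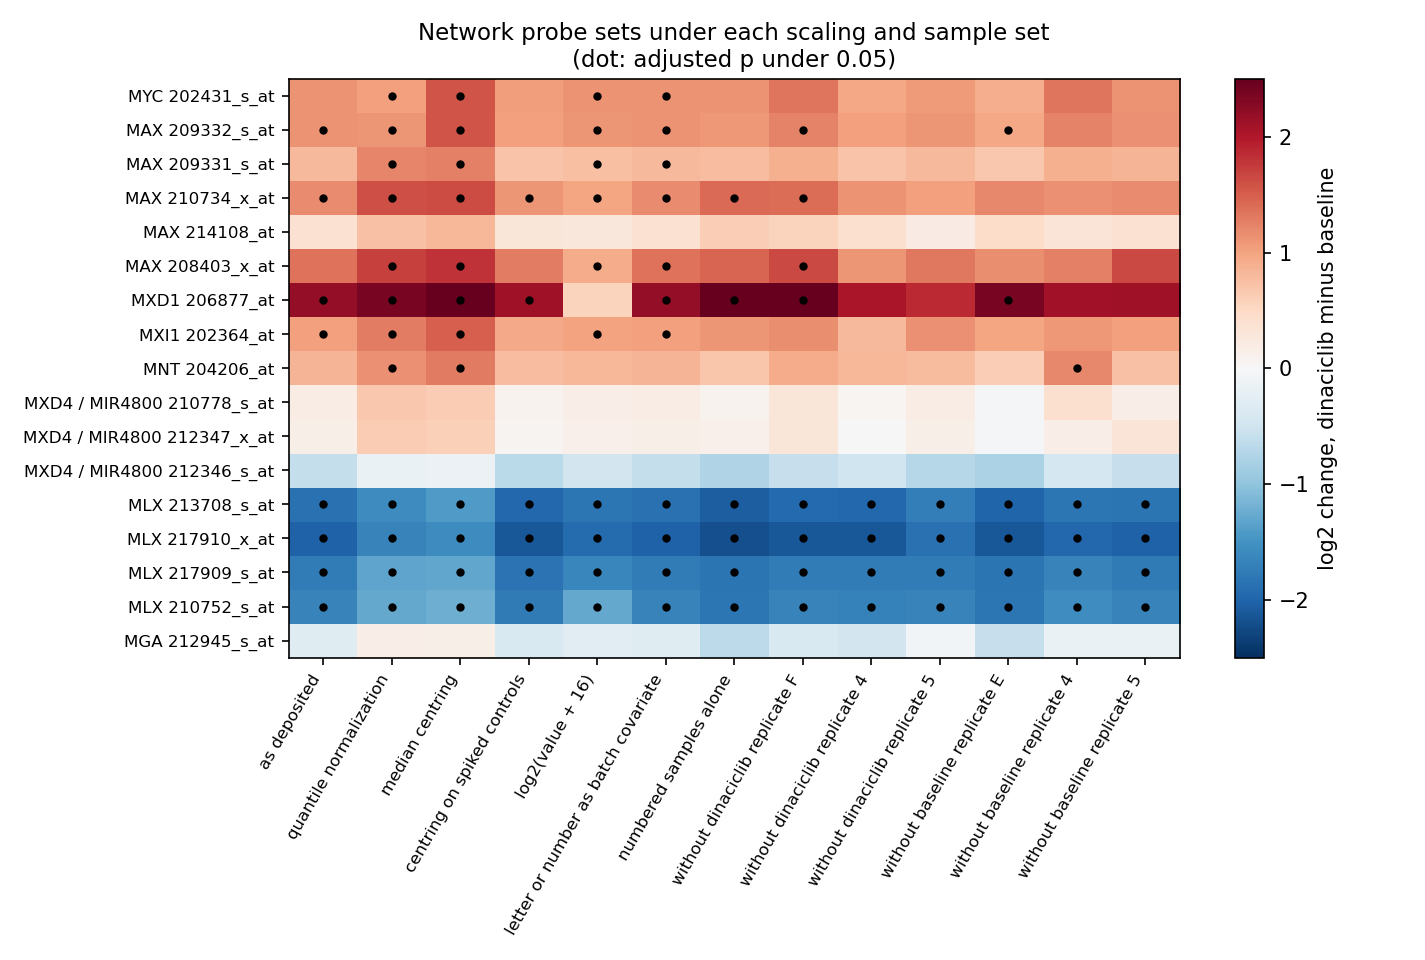
Log2 change of each probe set (colour, dinaciclib minus baseline), with a dot where adjusted p was under 0.05. Columns are a selection of the alternatives, among them scalings, letter or number as a covariate and left-out samples. The replicate block, in which no MLX probe set passed, is not among the columns. The MLX rows are dotted in every column shown, while the dots of MYC, MAX, MXD1, MXI1 and MNT come and go with processing and samples.

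The remaining genes of the same protein family were read from the probe set of each gene with the highest mean, as were all lists below. MLXIP (MondoA), the cytoplasmic partner of MLX, fell with intensities of 173, 199.7 and 151 in dinaciclib F, 4 and 5, against 338, 439 and 431 in baseline E, 4 and 5. No dinaciclib array reached the lowest baseline array, and the log2 change was -1.20 ± 0.21 (SE; limma, Benjamini-Hochberg adjusted p = 0.0150). Its call ended without baseline 4 or 5 (0.0608 and 0.0652), without dinaciclib 5 (0.0523) and in the numbered samples alone (0.0519), and its second probe set, with baseline values as low as 0.413, did not pass (0.412).

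MXD3, a family member linked to proliferating cells, did not pass, with 28.7, 51.5 and 70.02 in dinaciclib samples, against 101, 116 and 134 in baseline samples. Its groups did not overlap (log2 change -1.29, limma, adjusted p = 0.0531), and it passed under 6 alternatives, among them centring on spiked controls (0.0383) and without dinaciclib 5 (0.0465). MYCN (-0.025), MYCL (0.20) and MLXIPL (0.79) were dim, with no value above 28.7, and did not pass. Of these 5 family genes, the fall of MLXIP was the only call, with 2 at an unadjusted p under 0.05 and a list median of -0.025. Over all 11963 genes 3.32% rose and 15.8% fell, 19.1% in all, with a median of -0.26. These shares are the background of each list below. The called share was 25% of the corepressor list, 25% of the PRC1.6 partners and 35% of the MYC coactivators and turnover factors. It was 12.5% of the MYC-induced genes, 0% of the MYC-repressed genes and 12.5% of the MLX targets.

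The SIN3 and histone deacetylase corepressor, which MXD proteins bring to E-boxes, had 3 falls and 0 rises among 12 measured members, with a median log2 change of 0.0078. SIN3B, a scaffold of the complex, had 75.1, 60.2 and 46.5 in dinaciclib samples, against 243, 198 and 218 in baseline samples, and a log2 change of -1.86 ± 0.24 (SE; limma, Benjamini-Hochberg adjusted p = 0.00612). Both SIN3B probe sets fell. SAP130, another subunit, had a log2 change of -1.48 ± 0.26 (SE; limma, adjusted p = 0.0136), a call that ended without baseline 4 or 5 (0.0563 and 0.0562). HDAC1 and HDAC2, the deacetylases, had log2 changes of 0.089 and 0.48 and did not pass.

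Among 8 measured partners of MGA in PRC1.6, 1 rose, 1 fell and 6 did not pass, with a median of -0.087. RING1, a ubiquitin ligase subunit, had 112, 157 and 142 in dinaciclib samples, against 426, 464 and 414 in baseline samples (log2 change -1.67, standard error 0.21, limma, Benjamini-Hochberg adjusted p = 0.00564), and both of its probe sets fell. RYBP, a subunit of variant Polycomb complexes, had 2006, 2336 and 2339 in dinaciclib samples, against 849.99, 1078 and 1114 in baseline samples (log2 change 1.14, standard error 0.20, limma, adjusted p = 0.0149). All 3 RYBP probe sets rose. The call of RYBP ended without baseline 4 or 5 (0.0503 and 0.0516) or dinaciclib 4 or 5 (0.0566 and 0.0528), and that of RING1 with none of the 6 left out.

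Of 20 measured coactivators and turnover factors of MYC, 3 rose, 4 fell and 13 did not pass, with a median of -0.18. ZBTB17 (MIZ1), through which MYC represses genes, rose (log2 change 1.36, SE 0.26, limma, Benjamini-Hochberg adjusted p = 0.0178) on 1 of its 2 probe sets. USP36, a nucleolar deubiquitinase that acts on MYC, also rose (1.10, SE 0.25, adjusted p = 0.0300). TRRAP, the scaffold of histone acetyltransferase complexes that MYC recruits, fell on 1 of its 2 probe sets (log2 change -1.47, SE 0.39, adjusted p = 0.0489), and the acetyltransferase KAT5 (TIP60) on all 3 (-1.44, SE 0.27, adjusted p = 0.0169). Each KAT5 probe set carries the suffix of possible cross-hybridization. The calls of TRRAP and USP36 ended when any 1 of the 6 samples was left out, with adjusted p from 0.0547 to 0.144 and from 0.0581 to 0.104. TRRAP was also lost under quantile normalization (0.0826) and under median centring (0.0833), and USP36 with centring on spiked controls (0.0528). Of all 15 alternatives, TRRAP passed under 3 and USP36 under 6. KAT5 no longer passed without baseline 4 or 5 or dinaciclib 5 (0.0506 to 0.0588), nor ZBTB17 without baseline 4 or 5 or dinaciclib 4 (0.0553 to 0.0706).

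Among 32 measured genes that textbooks list as induced by MYC, 1 rose, 3 fell and 28 did not pass, with a median of -0.082. PPAT, the first enzyme of purine synthesis, rose (log2 change 1.40, SE 0.31, limma, Benjamini-Hochberg adjusted p = 0.0287) on both of its probe sets. CAD, which starts pyrimidine synthesis, fell with a log2 change of -1.79 (SE 0.35, adjusted p = 0.0190). TFAP4, a transcription factor gene, fell with -2.38 (SE 0.49, adjusted p = 0.0227) on a dim probe set of 1.80, 7.42 and 2.35 in dinaciclib samples, against 13.7, 26.4 and 26.8 in baseline samples. On the log2(value + 16) scale the change of TFAP4 was -0.94. All 3 calls ended without baseline 4 or 5 or dinaciclib 5, with adjusted p from 0.0551 to 0.0898. Those of CAD and TFAP4 ended without dinaciclib F too (0.0551 and 0.0574), and that of PPAT without baseline E (0.0584) or dinaciclib 4 (0.0886). None of 15 measured MYC-repressed genes passed in limma, and 1 had an unadjusted p under 0.05; their median was -0.22.

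Of 8 measured targets of MLX with MondoA or ChREBP, 1 rose, 0 fell and 7 did not pass, with a median of 0.13. ACACA, a fatty acid synthesis enzyme, was counted from a probe set that did not pass (log2 change -0.45, limma, adjusted p = 0.324), but its other probe set rose (2.75, adjusted p = 0.00953). That probe set read 160.5, 239 and 138 in dinaciclib F, 4 and 5, against 14.1, 40.3 and 27.4 in baseline E, 4 and 5. TXNIP, the best known MondoA target and a brake on glucose uptake, rose while MLX and MLXIP fell. It had 3000.2, 3267 and 3114 in dinaciclib samples, against 1636, 1939 and 2103 in baseline samples, a log2 change of 0.73 ± 0.19 (SE; limma, Benjamini-Hochberg adjusted p = 0.0467). All 3 TXNIP probe sets rose. The call on this probe set ended when any 1 of the 6 samples was left out, with adjusted p from 0.0821 to 0.140, and with centring on spiked controls (0.159).

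Over the 98 measured genes of these lists other than the network's own, 6 rose and 12 fell, which is 18.4%, against 19.1% of all genes. Counting a gene where any of its probe sets was called gave 21 genes, with ACACA, NOLC1 and MCM4 added. No background share by that looser rule is given here, so the 21 cannot be set against the 19.1%. Calls in the lists numbered 18 in all, but 2 without baseline 4, 2 without baseline 5, 10 without dinaciclib F, 9 without dinaciclib 4 and 5 without dinaciclib 5. Over all probe sets the same fits called 1715, 1623, 2814, 2093 and 2138, against 3828 with all 6 samples. As transcripts often taken as steady, GAPDH and ACTB had log2 changes of 0.049 and 0.13 and did not pass, but GAPDH passed as raised with median centring (0.50).

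**Figure D4:**
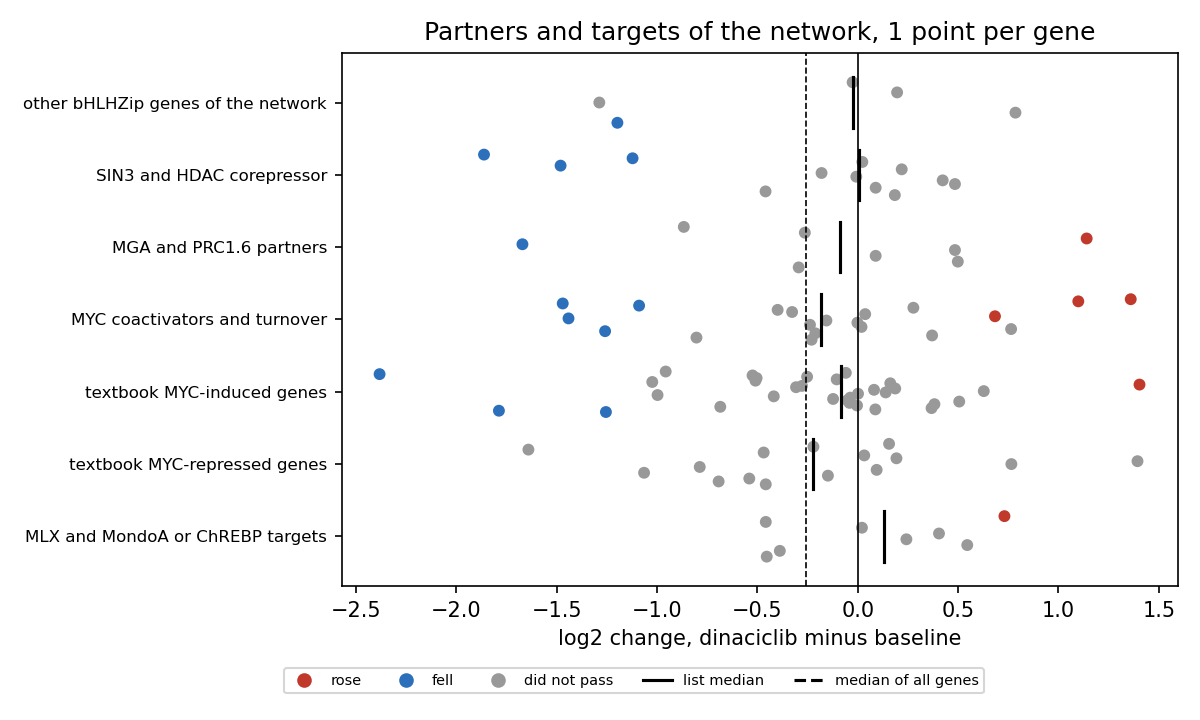
Log2 change of each measured gene, dinaciclib minus baseline (horizontal axis), in 7 lists of partners and targets of the network, 1 point per gene from its probe set with the highest mean. Red rose, blue fell and grey did not pass, solid bars are list medians and the dashed line is the median of all genes at -0.26. Calls of both directions stand among the PRC1.6 partners, the coactivators and the MYC-induced genes, and no call stands among the MYC-repressed genes.

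The genes whose values ran most like those of MYC over the 6 arrays were DDX24, CLK4, BCL10, H2AZ2 and KLF5, with Pearson r of 0.999, 0.998, 0.997, 0.996 and 0.996, the highest of 11785 probe sets of single genes that were not dim. For DDX24, H2AZ2 and KLF5 this probe set was not the one with the highest mean of its gene, whose change is not given here. The 6 points fall into the study's 2 groups and share array brightness, so r is a description only. KLF5, a Krüppel-like factor, rose on that probe set (log2 change 1.61, SE 0.38, limma, Benjamini-Hochberg adjusted p = 0.0339), and its call ended without baseline E, 4 or 5 or dinaciclib 4 or 5 (0.0560 to 0.0963) and in the numbered samples alone (0.0527). DDX24, CLK4, BCL10 and H2AZ2 had log2 changes between 0.67 and 1.04 and passed after quantile normalization but not as deposited.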

How the data were processed

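The authors deposited a table of 22277 probe sets, whose range shows intensity on a linear scale. No source used here gives their background correction, scaling or summarization. The table's 62 control probe sets were left out of tests. Genes came from the platform annotation (19064 probe sets with 1 gene, 1043 with several, 2108 with none named), and 19052 of the first matched RefSeq GRCh38.p14 by gene identifier, with 0 symbols updated. All 22215 rows were fitted as log2(value + 1) with the group as the only term, using limma 3.58.1 (lmFit, then eBayes) under R 4.3.3. Figures used matplotlib 3.10.9 in Python 3.11.15. The limma fit, with and without the letter or number covariate, was tested on simulated data. That simulation held no shift between arrays or between letter-named and numbered samples. The other steps were not simulated. Between arrays of 1 group r was 0.963 to 0.972, and across groups 0.937 to 0.947. The number of arrays limits precision.

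The members and lists were chosen with earlier results of these data known. Named genes were the members, the other 5 genes of the family, GAPDH and ACTB, the 2 largest rises and 2 largest falls past the threshold in each list, and the 5 genes most correlated with MYC above the 40th percentile of mean signal. HDAC1, HDAC2, ACACA, NOLC1, MCM4 and marker genes were named after their values were seen. Alternatives were 3 scalings, log2(value + 16), leaving out probe sets under the 40th percentile, robust eBayes with a mean-variance trend, letter or number as a covariate, a replicate block, the numbered samples alone and each sample left out.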

Additional observations from a re-analysis of the deposited data

How the results depend on the processing

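Of the 14 counted network probe sets, 13 kept their sign under every alternative that tested them; MGA did not, with 0.16 after quantile normalization and 0.15 after median centring. The 4 falls of MLX were called in 14 of 15 alternatives, all but the replicate block. Network rises numbered 8 with quantile normalization, 8 with median centring, 8 with a variance trend and robust estimation, 7 without dim probe sets, 7 with letter or number as a covariate, 2 with centring on spiked controls and 2 in the numbered samples alone, against 4 as deposited. Over all probe sets, rises numbered 2130, 3487, 1291, 1267, 1186, 520 and 449 in the same order, against 857. Falls numbered 2338, 1938, 4030, 3997, 3514, 2418 and 1721, against 2971. The fit without dim probe sets had 13329 rows. With 1 sample left out, 4 to 8 network probe sets were called, of which 0 to 4 rose and 4 fell. The numbered samples alone gave 2170 calls among all probe sets, and leaving out 1 sample 1623 to 3313, against 3828; fewer samples entered these fits. Genes called in the lists numbered 35 with median centring, 28 with a variance trend and robust estimation, 8 in the numbered samples alone and 2 to 15 with 1 sample left out, against 18. Over all probe sets, median centring gave 5425 calls and a variance trend with robust estimation 5321, against 3828. The cause of the other shifts was not tested.

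The replicate block paired numbers 4 and 5 and left 1 residual degree of freedom. Limma then called 0 network probe sets (0 rises, 0 falls), 0 of all probe sets and 0 list genes, with 11, 6799 and 29 at an unadjusted p under 0.05, and the network median was 0.72. Deviations of same-numbered samples correlated at 0.083 and 0.076, those of crossed numbers at 0.038 and -0.0037, and those of dinaciclib F with baseline E at 0.17. No label says that a number marks shared material, and the numbers were not taken as pairs.

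The MYC over MAX difference was -0.079 after quantile normalization and ranged from -0.063 to 0.10 with 1 sample left out. Dim or uncalled probe sets changed sign. Leaving out 1 sample gave -0.039 to 0.41 and -0.027 to 0.32 for 2 MXD4 probe sets, -0.020 to 0.26 for ACTB, -0.032 to 0.092 for GAPDH, -0.34 to 0.82 for MYCL and -0.23 to 0.24 for MYCN. MYCN was 0.23 after quantile normalization and 0.43 after median centring, GAPDH -0.045 after quantile normalization and -0.036 with spiked controls, and MYCL -0.14 in the numbered samples and with the replicate block.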

Other observations

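Of genes on the array with a RefSeq promoter window, the E-box CACGTG was present in at least 1 window of 60 of 333 genes that rose (18%), 215 of 1593 that fell (13.5%) and 869 of 7637 that did not pass (11.4%). No test was run on these shares, and a match is a description of the letters, not of binding.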
